A study of Mus musculus with 66 samples.

Results

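The 9 genes described here mark the interneurons of the ventral striatum and are Sst, Npy, Nos1, Chat, Slc5a7, Lhx8, Pvalb, Calb2 and Lhx6. They were taken from the 24138 genes of the deposited expression table by their symbols, and each symbol had 1 entry. RNA was sequenced from punches of the nucleus accumbens (NAcc) of adult male mice of the C57BL/6 strain, killed every 4 h at 6 time points of the light cycle (Zeitgeber time, ZT3 to ZT23). The values are FPKM, fragments mapped to a gene scaled to the length of its transcript and to the size of the library, in 66 distinct libraries that form 22 groups of 3.

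WT mice were compared with iMSN-D2RKO mice, in which both alleles of the dopamine D2 receptor gene are floxed and Cre is driven by the promoter of the D1 receptor. The deletion is meant for the indirect-pathway spiny neurons (iMSN), in which the D1 promoter is active during development. Mice of either genotype received saline or 20 mg/kg cocaine intraperitoneally at ZT3 and were killed at ZT7, ZT11, ZT15, ZT19 or ZT23. The 6 libraries of ZT3 are listed for both treatments. They enter the genotype comparison of the saline series and open both rhythm series of their genotype. The labels do not say whether the 3 libraries of a group came from separate mice, so p-values measure the spread between these libraries.

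Interneurons are a small minority of striatal neurons, most of which are GABAergic spiny projection neurons. Cholinergic interneurons make acetylcholine with choline acetyltransferase (Chat), take choline back up with the transporter encoded by Slc5a7 and depend on the LIM homeodomain factor Lhx8. GABA interneurons fall into classes that release somatostatin and neuropeptide Y and make nitric oxide (Sst, Npy, Nos1), that fire fast and hold the calcium-binding protein parvalbumin (Pvalb), or that hold calretinin (Calb2), and the factor Lhx6 marks those that arise in the medial ganglionic eminence. In tissue RNA such as this, fewer cells of a type and less RNA per cell cannot be told apart.

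The promoter windows of these genes were read because the study asks about daily rhythm and dopamine signaling, which act in part through the E-box and D-box of the clock and the cAMP response element (CRE). RefSeq windows of build GRCm38.p6 were at hand for 8 of the 9 genes, in 11 windows, and Calb2 had none. In the 250 bases before the start, searched on both strands, the CRE TGACGTCA was found in Sst, and 1.55% of 32544 promoters hold it. The E-box CACGTG was found in Chat, against 6.03% of all promoters. The D-box TTATGTAA (0.811% of all promoters) and the homeodomain core TAATTA (4.84%) were in none of the 11 windows. A match is a run of letters and not a site shown to be bound. The matches are shown here in capitals with their flanks, for Sst at chr16:23890874-23890903 on the minus strand, 59 to 30 bases before the start, and for Chat at chr14:32465991-32466018 on the minus strand.
Sst: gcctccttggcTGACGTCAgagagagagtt
Chat: aactcgggcctCACGTGccatctagggt

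Several properties of the whole series bear on what follows. Total FPKM per library ran from 364078 to 690048 (median 396432), and since the files hold no counts, depth is unknown. Drd2, the targeted gene, ran from 99.1 to 304 FPKM in the 33 WT libraries (median 129) and from 78.0 to 375 in the 33 iMSN-D2RKO libraries (median 112), so its level over the whole gene did not separate the genotypes. On the main axis of the differences within groups, 13 libraries (6 WT, 7 iMSN-D2RKO) stood apart from the other 53, and 12 of these 13 are of ZT15, ZT19 or ZT23. Markers of neighboring tissue varied widely: the summed FPKM of 7 cortical pyramidal genes ran from 4.44 to 312, that of 5 choroid plexus genes from 4.46 to 1145 and that of 9 thalamic and hypothalamic genes from 3.96 to 323.

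All 9 genes were above 1 FPKM in all 66 libraries. FPKM are scaled to transcript length, and levels are set side by side on that scale. The balance of long and short transcripts still differed between libraries, as described below. Sst was highest with a mean of 985 ± 358 FPKM (SD, n = 66), followed by Npy at 224 ± 94.5, Pvalb at 44.9 ± 47.8 and Calb2 at 12.6 ± 8.49. Lhx6 (11.01 ± 2.11), Chat (10.96 ± 2.27), Nos1 (9.28 ± 2.76) and Slc5a7 (9.20 ± 3.18) had means that lay within 1 SD of each other, and Lhx8 was lowest at 5.39 ± 1.47. Thus the peptides stood far above the enzyme of the same cell class, and the 3 cholinergic genes differed less from each other than the 3 genes of the somatostatin class. As a scale, Penk, the enkephalin precursor of iMSNs, had a mean of 1874 FPKM and the GABA-synthesizing enzyme Gad1 had 226.

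**Figure D1:**
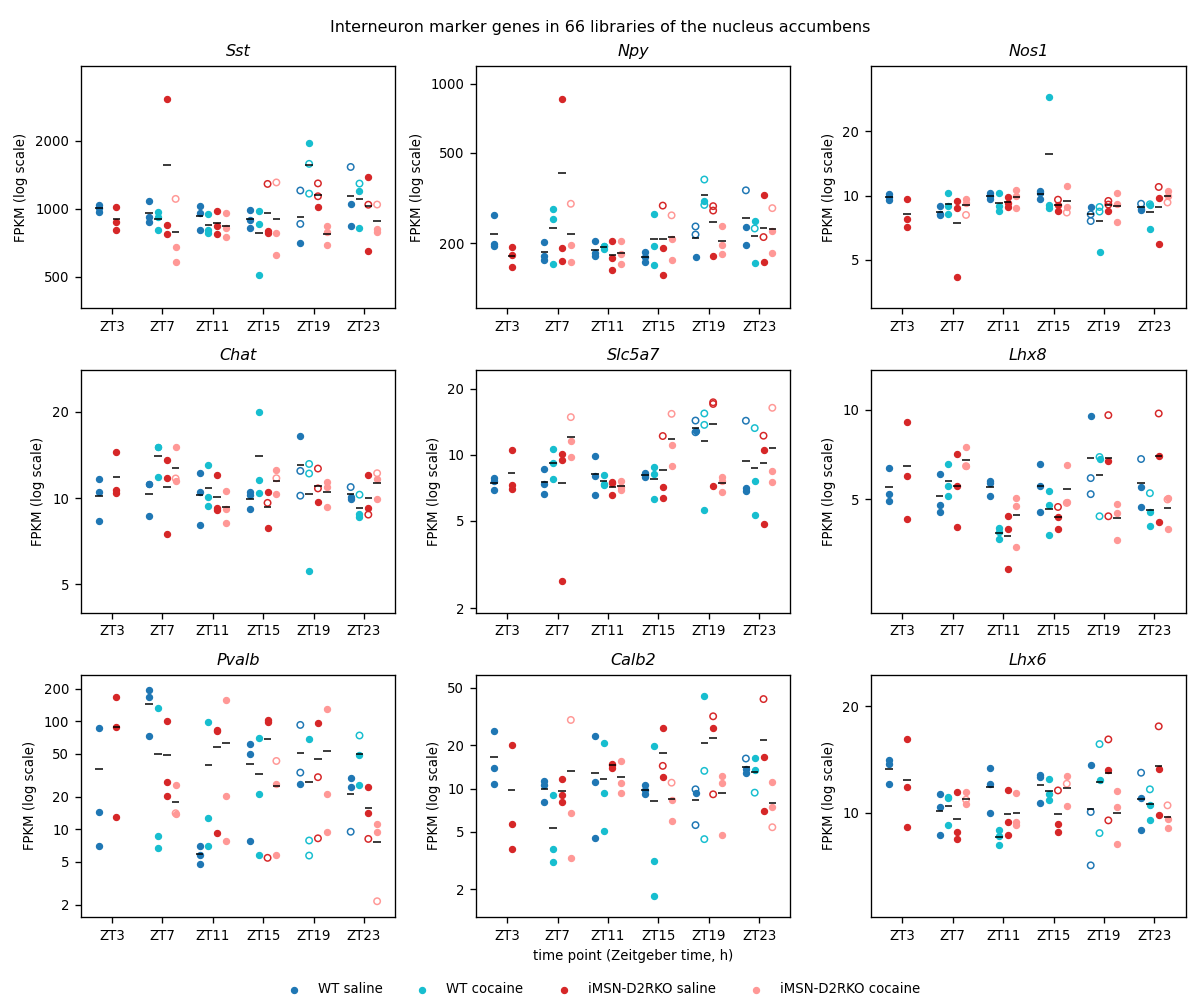
FPKM (log scale) of the 9 genes in each of 66 libraries against time point, colored by genotype and treatment; black bars are means of 3 libraries, open circles are the 13 libraries that stood apart, and the ZT3 libraries are drawn with the saline series. Pvalb spans 2.16 to 193 FPKM, and Slc5a7 is above 12 FPKM in every open circle.

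The genes differed most in how much they varied from library to library. Lhx6 and Chat varied least, with coefficients of variation of 19.2% and 20.7%, followed by Lhx8 (27.3%), Nos1 (29.7%), Slc5a7 (34.5%), Sst (36.3%) and Npy (42.3%). Calb2 (67.3%) and Pvalb (106%) varied most. The highest Pvalb value was 89.4 times the lowest, against 2.47 times for Lhx6.

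For Sst, WT libraries after saline at ZT7 to ZT23 ran from 701 to 1528 FPKM (median 914, n = 15) and after cocaine from 507 to 1957 (median 949, n = 15). In iMSN-D2RKO mice they ran from 649 to 3059.5 after saline (median 971) and from 583 to 1305 after cocaine (median 788). The 4 ranges overlap, and the highest and the lowest value are both single libraries. Replicate 1 of iMSN-D2RKO at ZT7 after saline had 3059.5 FPKM, with 856 FPKM of Npy, 4.14 of Nos1 and 2.67 of Slc5a7. Replicate 3 of WT at ZT15 after cocaine had the reverse, with 507 FPKM of Sst, 29.0 of Nos1 and 20.0 of Chat. These 2 libraries hold the highest values of Sst, Npy, Nos1 and Chat and the lowest of Sst, Nos1 and Slc5a7 in the series.

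Npy went from 166 to 342 FPKM in WT after saline (median 184, n = 15), from 160 to 381 after cocaine (median 233), and in iMSN-D2RKO from 146 to 856 (median 192) and from 162 to 298 (median 198). Nos1, the nitric oxide synthase of the same cells, had medians of 8.94 and 8.92 FPKM in WT and 9.07 and 9.27 in iMSN-D2RKO after saline and cocaine. The medians of Npy and Nos1 thus lay closer to each other between groups than the libraries did within a group.

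Of the cholinergic genes, Chat had medians of 10.5 and 11.6 FPKM after saline and cocaine in WT and of 9.70 and 11.4 in iMSN-D2RKO, with a whole range of 5.58 to 20.0. The choline transporter Slc5a7 ran from 12.2 to 17.4 FPKM in the 13 libraries that stood apart and from 2.67 to 12.8 in the other 53. In the 10 groups that held both kinds, it was higher in the former in 10 of 10, by a mean of 0.78 on the log2(FPKM + 1) scale, where Sst and Npy were higher in 9 of 10 by 0.43 and 0.44 and Chat in 7 of 10 by 0.10. All 9 members were among the 9584 genes that defined the axis, so these are descriptions without a test. Lhx8 kept within 2.89 to 9.73 FPKM.

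Pvalb differed widely between libraries of the same group. After saline at ZT7, the WT libraries had 72.8, 166 and 193 FPKM, and after cocaine 6.67, 8.73 and 134. After saline at ZT11, by contrast, all 3 WT libraries were low, at 4.77, 5.80 and 7.05 FPKM, and after cocaine 1 of 3 reached 98.3. Calretinin (Calb2) ran from 1.79 to 44.2 FPKM, with medians of 10.5 and 9.37 in WT and of 14.4 and 9.33 in iMSN-D2RKO after saline and cocaine. Its lowest and highest values were both in WT libraries after cocaine.

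The first question was whether loss of the D2 receptor from iMSNs went with another level of these markers. In the saline series (36 libraries, time point as a factor), limma called 0 of the 9 genes at an adjusted p under 0.05, where it called 27 of 14287 genes (0.189%), and 0 of the 9 had an unadjusted p under 0.05. The differences of iMSN-D2RKO minus WT ran from -0.10 for Nos1 to 0.28 for Pvalb on the log2(FPKM + 1) scale, with 4 above 0 and 5 below, and a median of -0.02 against 0.01 over all genes. The 95% intervals were -0.17 to 0.13 for Chat, -0.20 to 0.17 for Lhx6, -0.25 to 0.04 for Nos1, -0.27 to 0.16 for Lhx8 and -0.21 to 0.33 for Sst. For Pvalb the interval of -0.69 to 1.26 also admits a change of over 2-fold.

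After cocaine (30 libraries, ZT7 to ZT23), 0 of 9 genes were called by limma, where 7 of 14382 genes were (0.0487%). Again none had an unadjusted p under 0.05, against 3.55% of all genes. Sst was nearest, with a difference of -0.27 ± 0.14 (SE) and an adjusted p of 0.9996. Its median was 788 FPKM in 15 iMSN-D2RKO libraries against 949 in 15 WT libraries, and the ranges overlap. Penk, a spiny neuron marker, was called higher in iMSN-D2RKO in both series, by 0.76 ± 0.15 (limma, adjusted p = 0.0165) and 0.69 ± 0.13 (limma, adjusted p = 0.0224). The difference kept its size in every alternative (0.64 to 0.80 in the saline series, 0.62 to 0.77 after cocaine), but the call was lost in both series without the libraries that stood apart (adjusted p = 0.0609 and 0.0574) and without the filter on low values (0.0547 and 0.192). It was also lost in the saline series without the replicates numbered 2 or 3 (adjusted p = 0.719 and 0.656) and after cocaine without any 1 of the 3 numbers (0.245 to 0.9997). Penk was the only gene called among the lists of interneuron, receptor, spiny neuron and other cell type markers in the genotype and cocaine comparisons.

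**Figure D2:**
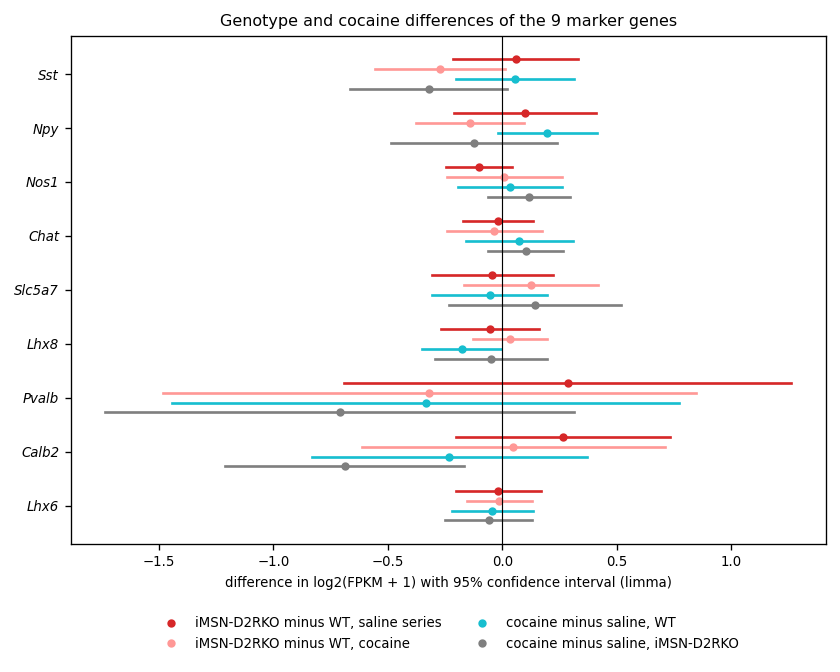
Differences in log2(FPKM + 1) of the 9 genes with 95% confidence intervals from limma, for genotype in the saline series (36 libraries) and after cocaine (30), and for cocaine in WT (30) and iMSN-D2RKO (30). The intervals of Pvalb and Calb2 are the widest, and those of Calb2 for cocaine in iMSN-D2RKO and of Lhx8 for cocaine in WT leave out 0, but 0 genes passed adjustment.

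The second question was whether cocaine moved them. Over ZT7 to ZT23, limma called 0 of 9 genes in WT (0 of 14392 genes, 0%) and 0 of 9 in iMSN-D2RKO (0 of 14238 genes, 0%). At an unadjusted p under 0.05 stood Lhx8 in WT, with a difference of -0.18 (95% interval -0.35 to -0.01), and Calb2 in iMSN-D2RKO, with -0.69 (-1.21 to -0.17), with adjusted p-values of 0.9996 and 0.9994. Over all genes, 2.54% and 2.98% had an unadjusted p under 0.05. The Calb2 values behind this ran from 6.95 to 41.9 FPKM after saline and from 3.28 to 29.97 after cocaine, so the groups overlap. Of the other members, Npy differed by 0.20 (-0.02 to 0.41) in WT and Sst by -0.32 (-0.67 to 0.02) in iMSN-D2RKO. A test of whether the cocaine effect differed between the genotypes also called 0 of 9 genes (limma, 0 of 14622 genes, 0%). In it, 0 of 9 had an unadjusted p under 0.05, against 1.68% of all genes. The estimate farthest from 0 was that of Calb2, at -0.46 with an interval of -1.26 to 0.34.

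At ZT7, 4 h after the injection, limma again called 0 of 9 genes in WT (1 of 14643 genes, 0.00683%) and 0 of 9 in iMSN-D2RKO (2 of 14643, 0.0137%). In WT, Pvalb differed by -2.63 (95% interval -5.05 to -0.21, limma, adjusted p = 1), from the values given above. It alone of the 9 was under 0.05 before adjustment, where 1.81% of all genes were. Chat differed by 0.40 (-0.02 to 0.83). It had 8.64, 11.2 and 11.2 FPKM after saline and 11.9, 15.1 and 15.1 after cocaine, groups that do not overlap, as was so for 9.06% of all 14643 genes in this comparison. Over all 5 later time points and both factors, 17 of 180 comparisons of 3 libraries with 3 did not overlap for the members. The Chat comparison above was the only 1 of 20 for that gene. The share over all genes was computed only for cocaine at ZT7 in WT, so the count of 17 is not read as a result about the members. With the summed oligodendrocyte markers of each library as a covariate, a choice made after seeing the data, the Pvalb difference was -0.83 (-2.31 to 0.65).

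In iMSN-D2RKO at ZT7, Sst differed by -0.73 and Slc5a7 by 0.77 (limma, adjusted p = 0.174 and adjusted p = 0.173). They were the 2 members under 0.05 before adjustment, in a comparison where 22.9% of all genes were. Sst had 3059.5, 850 and 769 FPKM after saline and 583, 1104 and 674 after cocaine, and Slc5a7 had 2.67, 9.50 and 10.1 against 11.6, 14.9 and 9.74. Both differences turned on the library with 3059.5 FPKM of Sst: without it and replicate 3 of WT at ZT15 after cocaine they were -0.09 and 0.26, and that of Npy went from -0.50 to 0.25.

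The third question was time of day. Across the 6 time points (66 libraries), limma called 0 of the 9 genes, where it called 7304 of 14643 genes (49.9%). Lhx8 alone was under 0.05 before adjustment (limma, adjusted p = 0.0647), where 59.1% of all genes were. Its fitted time points differed by at most 0.36 on the log2 scale, with medians that ran from 4.19 FPKM at ZT11 to 5.81 at ZT7. For Slc5a7 the median was 7.38 FPKM at ZT11 and 12.7 at ZT19, where 6 of 12 libraries stood apart, and its limma adjusted p was 0.187. Without the libraries that stood apart it was 0.823, and without the replicates numbered 2 Slc5a7 was called (limma, adjusted p = 0.0319, 48.9% of all genes). With the balance of long and short transcripts described below as a covariate, Slc5a7 (adjusted p = 0.0112) and Nos1 (adjusted p = 0.0377) were called by limma, and 56.5% of all genes were. With the summed oligodendrocyte markers as a covariate, Lhx8 (adjusted p = 0.0371) and Npy (adjusted p = 0.0467) were called, and 49.2% of all genes were.

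For rhythm, JTK_CYCLE with periods of 20 and 24 h called 0 of 9 genes in WT after saline, where 1367 of 13940 genes were called (9.81%), and 0 of 9 in WT after cocaine (1086 of 14268, 7.61%). In iMSN-D2RKO it called 0 of 9 after saline (365 of 14135, 2.58%) and 0 of 9 after cocaine (153 of 13944, 1.10%). A gene was called here at a corrected exact p under 0.01. Sst in WT after cocaine came nearest, with an exact p of 0.0146 over 18 libraries, a period of 20 h and a peak at ZT21, with group medians of 804 FPKM at ZT11, 1577 at ZT19 and 1202 at ZT23. It was the only member with a corrected p under 0.05 in any series. Of the 3 libraries at each time point of this series, 2 at ZT19 and 1 at ZT23 stood apart. Sst, itself among the genes that defined the axis, was higher in such libraries in 9 of the 10 groups that held both kinds. The part of these libraries in the Sst values over time was not tested. Without the replicates numbered 2, Lhx8 was called in iMSN-D2RKO after saline (exact p = 0.00390), where 6.68% of all genes were. A cosine of 24 h fitted with limma called 0 of 9 in each series as well, where it called 14.1% and 14.6% of genes in WT and 0.00707% and 0% in iMSN-D2RKO.

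Other genes listed for the cholinergic class were called at the time points at about the share of all genes. Of 8 further cholinergic genes, 5 were called by limma (49.9% of all genes were), among them the vesicular acetylcholine transporter Slc18a3 (adjusted p = 4.0e-04), acetylcholinesterase Ache (0.00382), the transporter-like Slc10a4 (0.00390) and the factor Isl1 (0.0289), which was named after its value was seen. Oligodendrocyte and cortical pyramidal markers were also called, 4 of 5 and 4 of 7, and their part in these counts was not tested. Slc18a3 had a median of 11.03 FPKM at ZT3 (6 libraries) and 10.3 at ZT7 and of 6.31 at ZT19 and 7.14 at ZT23 (12 libraries each), and Slc10a4 of 13.01 at ZT3 and 9.05 at ZT19. Without the libraries that stood apart, the Slc18a3 medians were 11.03 at ZT3 and 6.72 at ZT19. Slc18a3 lies inside Chat on the same strand (chr14:32462438-32464850, build GRCm38), so reads from these 2 genes may have been divided between them. It was called by JTK_CYCLE in WT after cocaine (corrected exact p = 4.9e-04) and in iMSN-D2RKO after saline (exact p = 0.00223), which was not tested as a difference from the other series, and in both its host gene Chat had a corrected p of 1.

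The most abundant genes of the same lists give a scale for the members. Among cholinergic genes these were Ache with a mean of 58.4 FPKM and Slc10a4 with 10.6, and among somatostatin and ganglionic eminence genes Nxph1 had 15.04. Of parvalbumin-cell genes they were the potassium channel Kcnc1 (32.2) and Cox6a2 (15.7), and of other interneuron classes the peptide gene Cck (119) and Cxcl14 (34.8). Cck ran from 17.2 to 380.0 FPKM, a larger ratio of highest to lowest than that of any member but Calb2 and Pvalb.

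Among the other lists at the time points, limma called 2 of 9 other somatostatin and ganglionic eminence genes (among them Satb1), 0 of 6 other parvalbumin-cell genes, 1 of 9 genes of other interneuron classes (Ndnf) and 2 of 4 genes of GABA synthesis and transport, against 49.9% of all genes. Among the last was the vesicular GABA transporter Slc32a1, which had a median of 189 FPKM at ZT3 and 108.5 at ZT19. Of 12 receptors and effectors for somatostatin, neuropeptide Y and nitric oxide, 6 were called, among them the guanylate cyclase subunit Gucy1b3 (adjusted p = 9.1e-04), the neuropeptide Y receptor Npy1r, the kinase Prkg2 and the somatostatin receptor Sstr3. Gucy1b3 had a median of 79.6 FPKM at ZT3 and 114 at ZT19. Without the libraries that stood apart, where 23.3% of all genes were called, Slc18a3 (0.0161), Ache (0.0141), Isl1 (0.0423) and Sstr3 (0.0498) were still called by limma at the adjusted p given. By the same test, Gucy1b3 (0.106), Npy1r (0.246), Prkg2 (0.145), Satb1 (0.119), Ndnf (0.208), Slc10a4 (0.0893) and Slc32a1 (0.108) were not called. Without the replicates numbered 1, the first 4 were lost (adjusted p = 0.0849 for Slc18a3, 0.249 for Ache, 0.297 for Isl1 and 0.0682 for Sstr3), and without those numbered 3 Sstr3 was (0.397).

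The members were next compared for how they varied together within groups. Deviations of log2(FPKM + 1) from the group mean were compared over 50 libraries of 19 groups, without those that stood apart, for all 36 pairs, with permutation p-values from 100000 reassignments within groups and Benjamini-Hochberg adjustment. Pearson's r was past an adjusted p of 0.05 for 7 pairs, and for 0, 1 and 1 pairs when the replicates numbered 1, 2 or 3 were left out. The share of other gene pairs that would pass was not computed, so 7 of 36 is not read as particular to these genes. Sst and Npy, the peptide pair, had r = 0.89 (adjusted permutation p = 0.00108, rho = 0.76, adjusted p = 3.6e-04), and 0.79 without the 2 libraries farthest from the median of Sst. Chat and Slc5a7, the cholinergic pair, had r = 0.66 (adjusted permutation p = 0.00108, rho = 0.69, adjusted p = 9.0e-04), and 0.65 without 2. Lhx8 and Lhx6, the LIM homeodomain pair, had r = 0.72 (adjusted permutation p = 0.00240, rho = 0.63, adjusted p = 0.0108), and 0.62 without 2.

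Of the other 4 pairs, all but that of Sst with Nos1 crossed the cell classes. Nos1, which shares its cells with Sst, went opposite to it (r = -0.74, adjusted permutation p = 0.0437, rho = -0.57, adjusted p = 0.0352; -0.69 without 2) and went with Chat (r = 0.69, adjusted permutation p = 0.0186, rho = 0.52, adjusted p = 0.030; 0.55 without 2). Slc5a7 went opposite to Sst (r = -0.83, adjusted permutation p = 0.0305, rho = -0.55, adjusted p = 0.0352; -0.68 without 2) and with Nos1 (r = 0.60, adjusted permutation p = 0.0454, rho = 0.60, adjusted p = 0.0247; 0.63 without 2). Without replicate 1 of iMSN-D2RKO at ZT7 after saline and replicate 3 of WT at ZT15 after cocaine, these 4 pairs had adjusted p-values of 0.0616 to 0.279, and the pairs Sst with Npy, Chat with Slc5a7 and Lhx8 with Lhx6 stayed past the threshold (0.00984, 0.0027 and 0.0027). Pvalb and Calb2 were in none of the 7 pairs.

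**Figure D3:**
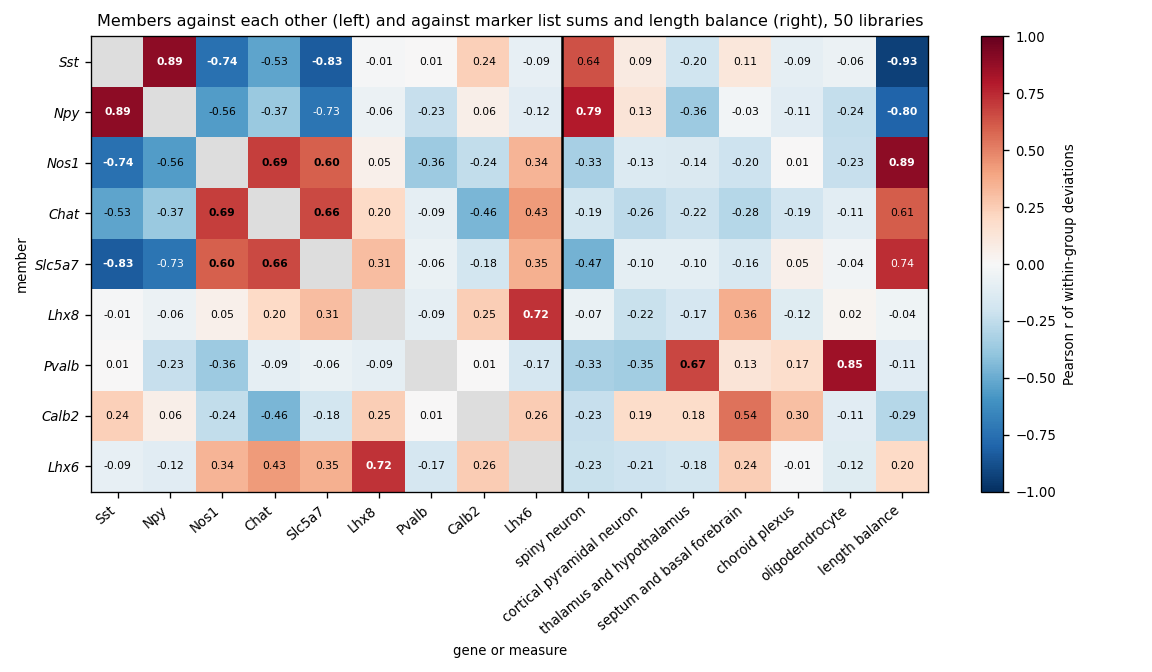
Pearson r of within-group deviations over 50 libraries, for the 9 genes against each other (left of the line) and against summed marker lists and the balance of long against short transcripts (right); bold marks an adjusted permutation p under 0.05. Sst and Npy are opposite in sign to Nos1, Chat and Slc5a7, Lhx6 goes with Lhx8, and Pvalb goes with oligodendrocyte and thalamic markers.

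Measures of the libraries moved with some of these genes. For each library, the mean log2 level of 2221 genes with transcripts of at least 4793 bases was set against that of 2221 genes with transcripts of at most 2042 bases, a measure chosen after the values were seen, and this balance ran from -1.67 to 1.22. The 2 ends were the libraries named above. The members were not left out of the measure. By their lengths, Sst, Npy, Pvalb and Calb2 are among the 2221 short genes and Nos1 and Slc5a7 among the 2221 long ones. Sst fell as the balance rose (r = -0.93, adjusted permutation p = 3.2e-04 over 63 relations, rho = -0.89, adjusted p = 3.2e-04, and -0.92 without the 2 farthest libraries), as did Npy (r = -0.80, adjusted permutation p = 0.0125, rho = -0.66, adjusted p = 0.00693; -0.74 without 2). Nos1 rose with it (r = 0.89, adjusted permutation p = 0.0337, rho = 0.65, adjusted p = 0.0199; 0.82 without 2).

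The longest protein-coding transcript has 566 bases for Npy, 721 for Sst, 977 for Pvalb, 1431 for Calb2, 2076 for Lhx8, 2858 for Chat, 3481 for Lhx6, 5180 for Slc5a7 and 10123 for Nos1, and the part of transcript length in these relations was not tested. Slc5a7 had r = 0.74 with the balance (adjusted permutation p = 0.118, rho = 0.55, adjusted p = 0.0681; 0.72 without 2). Pvalb and Lhx8 had r = -0.11 and -0.04, each with an adjusted permutation p of 0.677 or more (rho = -0.07 and -0.02; -0.07 and 0.07 without 2). With the balance removed from each gene, Lhx8 with Lhx6 (r = 0.75, adjusted permutation p = 0.00576) and Sst with Npy (r = 0.67, adjusted permutation p = 0.0449) stayed past the threshold, Chat with Slc5a7 had r = 0.39 (adjusted permutation p = 0.0694), and Sst with Nos1 had r = 0.56, of the other sign (adjusted permutation p = 0.0513). Npy also went with the summed spiny neuron markers (r = 0.79, adjusted permutation p = 0.00850, rho = 0.56, adjusted p = 0.0199; 0.58 without 2).

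Pvalb followed another measure. It rose with the sum of 5 oligodendrocyte markers (r = 0.85, adjusted permutation p = 3.2e-04, rho = 0.83, adjusted p = 3.2e-04; 0.83 without 2) and of 9 thalamic and hypothalamic markers (r = 0.67, adjusted permutation p = 0.00651, rho = 0.65, adjusted p = 0.00462; 0.63 without 2). The oligodendrocyte sum ran from 1738 to 5290 FPKM over the 66 libraries, with medians of 3109 and 2713 in WT and of 2754 and 2491 in iMSN-D2RKO in the saline series and after cocaine. The defining thalamic marker Slc17a6 ran from 0.0731 to 32.2 FPKM. The part of tissue makeup in the Pvalb values was not tested. No other relation of the 63, apart from these 6, passed an adjusted p of 0.05.

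**Figure D4:**
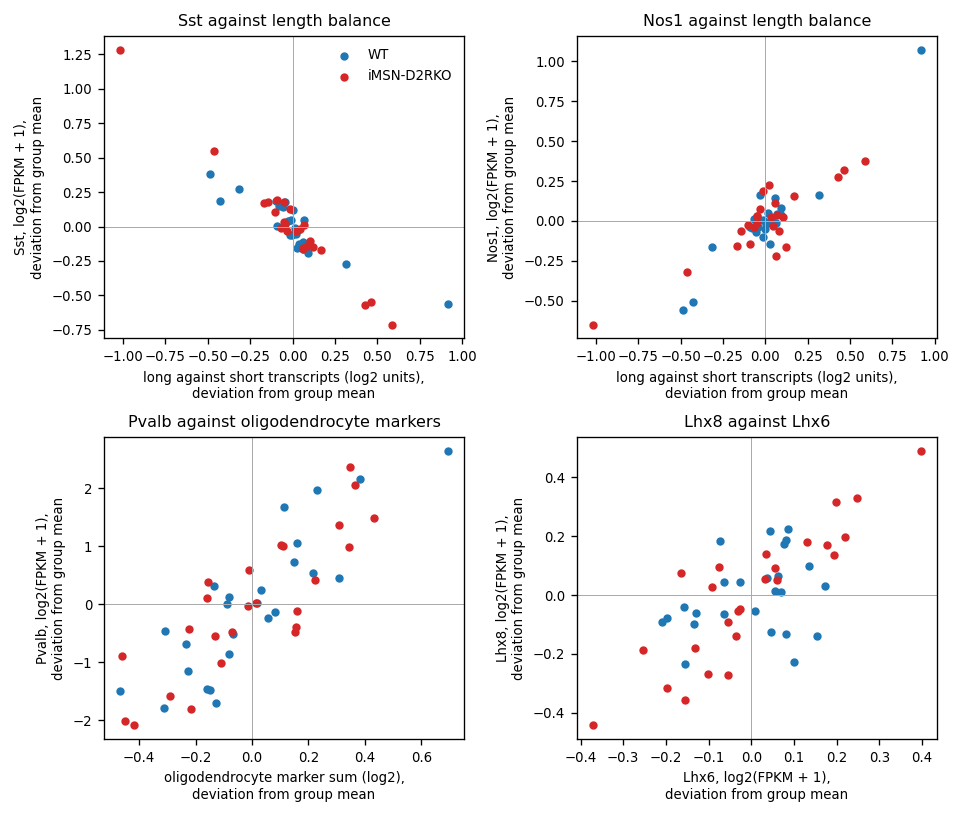
Deviations from the group mean in 50 libraries, WT in blue and iMSN-D2RKO in red, of Sst and Nos1 against the balance of long and short transcripts, of Pvalb against the summed oligodendrocyte markers (log2) and of Lhx8 against Lhx6. Sst falls (r = -0.93) and Nos1 rises (r = 0.89) with the balance, and Pvalb (r = 0.85) and Lhx8 (r = 0.72) rise with the measure on their x axis.

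The genes most like each member, by Pearson's r of the same deviations among 12701 genes, are given as a description. Sst was most like Sgta (r = 0.97), Hcfc1r1 (0.96) and Csnk2b (0.96), and Npy most like Nipsnap1 (0.95), Sh3glb2 (0.94) and Eri3 (0.93), all with a longest transcript of 946 to 1969 bases. Nos1 was most like Prrc2b (0.97), Zfp609 (0.96) and Cacna1b (0.96), with longest transcripts of 7777 to 10671 bases. Slc5a7 was most like Fnip1, 8030462N17Rik and Wdr48 (each 0.90), with longest transcripts of 3845 to 6255 bases. Chat was most like Prima1 (0.81), the membrane anchor of acetylcholinesterase, then Ampd3 (0.78) and Tmem63c (0.76), with 909 to 4094 bases.

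Pvalb was most like Kcng4 (0.96), a potassium channel subunit with a mean of 1.90 FPKM, Spp1 (0.90) and Lbh (0.89). Their longest transcripts have 1507 to 3806 bases. Calb2 was most like Gpx3 (0.84), Wdr1 (0.81) and Tmem130 (0.80), with 1594 to 3089 bases. Lhx8 was most like AI606473 (0.73, no length at hand), Lhx6 (0.72, 3481 bases) and the homeobox gene Gbx1 (0.69, 3475 bases). Lhx6 was most like Fam196a (0.79), Mdga1 (0.79) and Elfn1 (0.76), with 2490 to 8425 bases. Over all 66 libraries, r fell for some of these genes and rose for others. Npy had r = 0.24 with Sh3glb2 and 0.57 with Nipsnap1, Sst had 0.67 with Csnk2b, and Chat had 0.61 with Prima1. Lhx6 with Lhx8 had r = 0.83, Slc5a7 with Fnip1 had 0.92 and Pvalb with Kcng4 had 0.89.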

How the data were processed

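Per the paper's methods and the labels, the authors prepared stranded poly(A) libraries from NAcc punches, aligned single-end reads to mm10 (build GRCm38) with TopHat and Bowtie, and computed FPKM per gene with Cufflinks and Cuffnorm. CASAVA 1.8.2 is named in the submitters' processing notes. The deposited values are these FPKM, for 24138 genes in 72 columns. Each of the 6 ZT3 libraries fills 2 columns that hold the same values and was counted once. The normalization option of Cuffnorm is not given in the sources used here. Read counts were not analysed here.

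Here FPKM were put on the log2(FPKM + 1) scale and every gene that reached 1 FPKM somewhere in a fit was tested with limma 3.58.1 (R 4.3.3), using its trended variance prior and Benjamini-Hochberg adjustment over the genes tested. Log2 differences on this scale understate changes of low values. The ZT7 cocaine effects come from 1 model of the 22 groups. JTK_CYCLE was written in Python with an exact p multiplied by 11, and Dixon's test at 95% removed at most 1 replicate a time point. The scripts were tested on simulated data.

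The members and lists were chosen with earlier results of these data known. Named genes are the 9 members, for each the 3 genes most like it with a mean of at least 1 FPKM, from each list the called genes (at most 4) and the 2 most abundant, and Drd2. Lists of other cell types are given as counts or summed levels, and their abundant genes are not all printed. The axis that set 13 libraries apart held 43.6% of the within-group variance of 9584 genes with a mean above 5 FPKM. Their scores were 44.3 to 56.1, against -35.9 to 15.1 in the others. Of 15 listed receptor and effector symbols, 12 were in the table. Promoter windows are from RefSeq and transcript lengths from GENCODE M21, which had one for 92.7% of the genes in the balance. Some genes of the lists are not reported here by name.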

Additional observations from a re-analysis of the deposited data

How the results depend on the processing

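In the comparisons of genotype, cocaine and their interaction, 0 of 9 genes were called in the main fit and in each of 12 alternatives, and the smallest adjusted limma p among 756 recomputed differences was 0.0686. Of these differences, 62 changed sign, none of them past the threshold. At the time points 0 of 9 became 2 with the length balance as covariate, 2 with the oligodendrocyte sum (Npy and Lhx8) and 0 to 1 when a replicate number was left out. For rhythm in iMSN-D2RKO after saline, the count was 0 to 1 when a replicate number was left out (Lhx8 without number 2, exact p = 0.00390), and all other rhythm counts were 0. The 7 pairs of members became 3 with the library score removed, 3 without the 2 extreme libraries, 4 with the length balance removed (Sst with Nos1 turned to r = 0.56 and Nos1 with Slc5a7 to r = -0.22), 8 with all 66 libraries (7 with another pseudocount) and 0 to 1 when a replicate number was left out. The pairs were not computed in the libraries that stood apart alone, since only 3 of their 10 groups hold 2 of them.

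Counts over all genes moved more. In the saline series, 27 genotype calls became 19 to 136 (136 with the library score as covariate, 81 with the length balance, 47 without the libraries that stood apart) and 7 to 11 without a replicate number. After cocaine, 7 became 5 to 25 and 0 to 6. For cocaine at ZT7 in iMSN-D2RKO, 2 became 0 to 19, and 1312 without the replicates numbered 3. The 7304 time point calls became 3360 without the libraries that stood apart, 5472 with the library score, and 1663 and 2404 without the replicates numbered 1 and 3. JTK_CYCLE calls ranged from 202 to 1455 in WT after saline, 210 to 1166 in WT after cocaine, 79 to 938 in iMSN-D2RKO after saline and 55 to 383 after cocaine, and the cosine fit called 1965, 2084, 1 and 0.

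The labels number the replicates 1 to 3 in each group, without saying that a number marks a shared litter or batch, and libraries of the same number deviated together (r over 0.1) in 9 of 18 pairs between the genotypes after saline, so the numbers were not taken as pairing. With a replicate block, 0 of 9 genes were called in each limma comparison and 7 pairs of members remained past the threshold by count. Without read counts, the precision of low values such as those of Lhx8 rests on 3 libraries a group.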
